A study of Ambystoma mexicanum with 6 samples.

Results

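Among the genes of the axolotl retina, 264 were well read in uninjured tissue and close to absent in retinas that had regrown for 27 days after removal. They were chosen by a rule on the deposited read estimates. A gene belonged if its mean over the uninjured pools was at least 10 CPM (its estimated reads scaled to a common library total) and its mean over the regenerating pools was at most 0.781% of that, a mean of 0 included. The limit corresponds to 7 doublings, or a log2 change of -7. The files hold 99088 genes, of which 11656 reached 10 CPM in the uninjured mean, and the 264 members were 2.26% of these. The rule used the difference between the groups, so the size of that difference is given below as a description and without a test.

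The axolotl (Ambystoma mexicanum) is a salamander that can rebuild a retina after it has been taken out. The regenerating group held 3 pools of retina collected 27 days after retinectomy, and the uninjured group held 3 pools of retina taken from the left eyes at the operation. Each pool combined retinas of 4 adult animals, 12 animals in all, of the leucistic genotype, and a regenerating pool came from the same animals as the uninjured pool of the same number. Pools hide the differences between their animals, the labels name no transgene, and the animals were under anaesthesia for the operation. Libraries held 29.4 to 34.2 M (mega) estimated reads in the regenerating group and 30.96 to 37.4 M in the uninjured group, so that 3 reads corresponded to 0.0801 to 0.102 CPM. Among the uninjured pools 2 stand apart for some members: pool 1 was low for most of them, and pool 2 was close to 0 for 10 of them, so results are also given without these where they matter.

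A mature vertebrate retina is made of rods and cones, the interneurons that relay their signals, ganglion cells, and Müller glia. Photoreceptors carry very large amounts of RNA for the proteins of light detection, while a retina rebuilt from dividing precursors has to make each of these cell types anew. The files name genes by number only, and of the 264 identifiers 0 were found in RefSeq's axolotl genes (assembly UKY_AmexF1_1). Members are therefore described by their rank in mean uninjured CPM, without names or roles, and the tissue labels were not checked against marker genes. In pooled tissue, fewer cells of a type and less RNA per cell cannot be told apart.

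The members took up a sizeable part of the uninjured transcriptome. Their share of reads was 0.0468%, 0.0341% and 0.0364% in regenerating pools 1, 2 and 3, against 8.07%, 15.7% and 15.7% in uninjured pools 1, 2 and 3. The 95% Wilson intervals, which cover counting error only, were 0.0461% to 0.0476%, 0.0335% to 0.0347% and 0.0358% to 0.0371% in the regenerating pools and 8.06% to 8.08% in uninjured pool 1. Both values of 15.7% had intervals of 15.7% to 15.7%. The regenerating pools lay far under all uninjured pools, and pool 1 was the highest of them. Uninjured pool 1 stood apart, below the other uninjured pools. The means were 0.0391% ± 0.00679 in regenerating and 13.1% ± 4.40 in uninjured pools (SD, n = 3 each). The uninjured mean was 15.7% without uninjured pool 1 and 12.96% without the 10 members near 0 in uninjured pool 2. In TPM, a unit that corrects for gene length, the shares were 0.0400% ± 0.00449 in regenerating and 15.3% ± 5.69 in uninjured pools (SD, n = 3 each). The TPM shares include the 10 members near 0 in uninjured pool 2 and are not given without them. These 10 held 26.1% and 32.5% of the members' TPM in uninjured pools 1 and 3, so the TPM share rests on them more than the read share does.

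A few genes made up most of this share. The member of rank 1 alone took 24.7% ± 2.86 of the members' reads in regenerating and 31% ± 4.00 in uninjured pools (SD, n = 3 each). The 20 highest took 67.7% ± 2.14 in regenerating and 76.8% ± 3.90 in uninjured pools (SD, n = 3 each). At the other end, 84 members lay between 10 and 30 CPM in the uninjured mean and another 84 between 30 and 100 CPM, while 75 lay between 100 and 1000 CPM and 21 above. The median member had 0.277 CPM in the regenerating and 64.1 CPM in the uninjured mean.

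**Figure D1:**
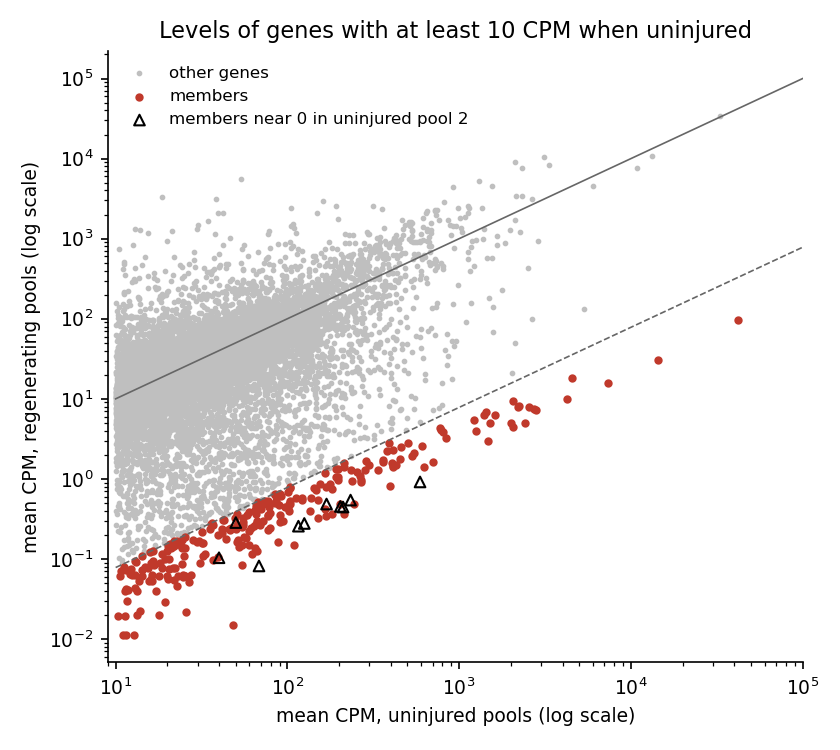
Mean CPM in the regenerating pools (vertical, log scale) against mean CPM in the uninjured pools (horizontal, log scale) for genes with at least 10 CPM when uninjured, where the solid line marks equal levels and the dashed line a level lower by 7 doublings. Red points are members, open triangles the 10 members near 0 in uninjured pool 2, grey points the other genes. The 2 members without a regenerating read cannot be drawn on a log axis. The dashed line is the limit of the rule, so no member lies above it by construction.

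Of the 20 highest members, the first was AMEX60DD023501, with a length of 5562 bases. It had 101, 86.8 and 98.8 CPM in the regenerating pools and 21272, 52404 and 52018 CPM in the uninjured pools. The groups were far apart, the regenerating pools agreed closely among themselves, and uninjured pool 1 held less than the other uninjured pools. The ratio of the means was 439-fold. The edgeR fit over all genes gave a log2 change of -8.64 with an SE of 0.58.

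The second was AMEX60DD002642, 8747 bases long, with 29.97, 27.9 and 33.6 CPM in the regenerating pools and 10200, 17041 and 15849 CPM in the uninjured pools. It was again lowest in uninjured pool 1 and even across the regenerating pools. Its means differed 471-fold, with a fitted log2 change of -8.73 and an SE of 0.41.

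The member of rank 3 had 15.7 ± 2.17 CPM in regenerating and 7320 ± 3113 CPM in uninjured pools (SD, n = 3 each). That of rank 4 had 18.4 ± 2.17 CPM in regenerating and 4542 ± 1724 CPM in uninjured pools (SD, n = 3 each). Across the 20 highest, single pools ranged from 2.47 to 101 CPM in the regenerating group and from 653 to 52404 CPM in the uninjured group.

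Levels of different genes can be set side by side only per length. By uninjured TPM the highest member was that of rank 5 in CPM, 632 bases long, at 42.8 ± 4.12 TPM in regenerating and 20356 ± 8915 TPM in uninjured pools (SD, n = 3 each). The member of rank 1 in CPM came next at 34.4 ± 2.98 TPM in regenerating and 16619 ± 7588 TPM in uninjured pools, and rank 4 followed at 52.1 ± 2.88 and 14416 ± 5665 TPM in the same groups (SD, n = 3 each). Uninjured pool 1 was the lowest uninjured pool in CPM for all 3. Their uninjured SDs therefore hold a shift that the genes share, and do not measure how far the genes differ from each other. In the regenerating pools rank 4 had the most TPM of the 3, above rank 5 by more than their SD.

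**Figure D2:**
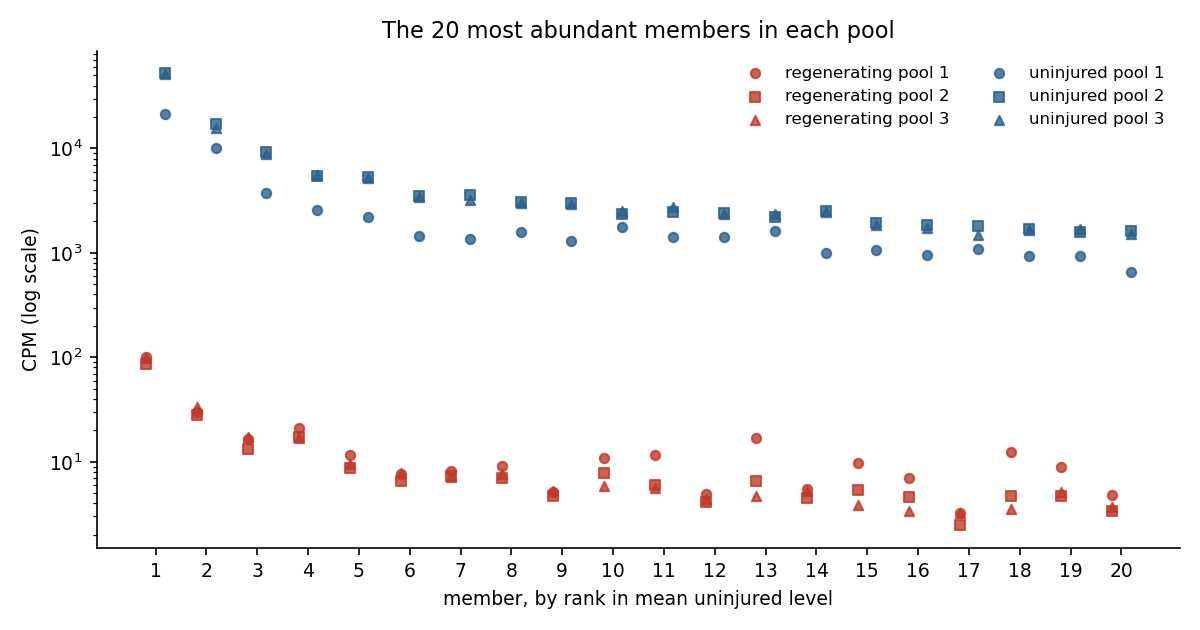
CPM (log scale) of the 20 members with the highest mean uninjured level, by rank, with regenerating pools in red to the left of uninjured pools in blue and a marker shape for each pool number. Regenerating values lie between 2.47 and 101 CPM and uninjured values between 653 and 52404 CPM; the blue circles of uninjured pool 1 are the lowest uninjured values at all 20 ranks.

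Few members were entirely unread after regrowth. At least 1 read was found for 245, 234 and 246 of the 264 members in regenerating pools 1, 2 and 3, and 214 had at least 1 read in all of these pools. A total of 67 members had under 10 reads over the 3 regenerating libraries, so their residual level is poorly measured. Only 2 members, of ranks 225 and 261, had no read in any regenerating library.

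The unread member of rank 225, 460 bases long, had 7.67, 22.4 and 19.96 CPM in uninjured pools 1, 2 and 3. That of rank 261, 403 bases long, had 6.55, 11.7 and 14.7 CPM there. Against a limit of 3 reads in each regenerating library rank 225 was at least 177-fold lower in the regenerating pools, and rank 261 at least 116-fold lower. Both were lowest in uninjured pool 1, as most members were.

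The level that remained is given here as a description, since the rule used both of its terms. The residual level, the regenerating mean as a percentage of the uninjured mean, had a median of 0.437% over all members, with a 10th percentile of 0.204% and a 90th of 0.707%. The rule sets its upper limit at 0.781%. By uninjured level, the median was 0.421% from 10 to 30 CPM, 0.495% from 30 to 100 CPM, 0.428% from 100 to 1000 CPM and 0.310% above. In the class from 10 to 30 CPM the median regenerating mean was 0.0675 CPM. That is under the level of 3 reads, so residual levels in this class are poorly measured. Among the 20 highest members the residual level ran from 0.203% to 0.480%, that is from 493-fold to 208-fold lower. Across the 264 genes, which share the same 6 libraries, regenerating and uninjured CPM had a Spearman correlation of 0.94; the rule caps one by the other and so fixes part of it, and nothing is read from it.

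The members did not stop at a gap in the data. The 5 members nearest to the limit had log2 changes of the mean from -7.03 to -7.00, with uninjured means between 21.8 and 84.3 CPM. The 5 genes just outside had log2 changes from -7.00 to -6.96, with uninjured means between 16.7 and 176 CPM.

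In the edgeR quasi-likelihood test over all 37844 genes tested, 21.1% were called lower and 20.4% higher (adjusted p under 0.05), 8004 and 7729 genes. On log2(TPM + 0.5) limma called 10615 lower and 5590 higher, out of a larger number of genes tested, 55692. On library totals edgeR called 9492 lower and 6256 higher of the same 37844. Of the 264 members 262 passed its filter on low counts, 262 were called lower and 0 higher, and those of ranks 166 and 235 were not tested. Since the contrast chose the members, nothing is read from this. Likewise all but 8 members had every regenerating pool below every uninjured pool, which held for 50.2% of the genes with at least 10 CPM. The 8 exceptions are described further on.

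Holding out a pair of same-numbered pools shows the fall in animals whose values did not pick the genes. The limits of the rule were set with results of all pairs known, so this is a description and not an independent test. The other genes named here reached 10 CPM in the mean of all uninjured pools, the held-out one included. Chosen on pairs 2 and 3 alone, the rule took 341 genes. In the held-out pair 1, 153 of them (44.9%) were lower by at least 7 doublings in the regenerating pool, 265 (77.7%) were at least 64-fold lower and 340 at least 8-fold lower. Among the other genes with at least 10 CPM, 0.38% were lower by 7 doublings. Chosen on pairs 1 and 3, the rule took 245 genes, of which 207 (84.5%) were lower by at least 7 doublings in pair 2, against 1.06% of the other genes. In pair 2, 234 of the 245 were at least 8-fold lower and 240 were lower at all. The 10 members near 0 in uninjured pool 2 are all among the 245, and none of them was 8-fold lower in pair 2. Every gene of the 245 that was not lower at all in pair 2 belonged to these 10. The shares in pair 2 are not given without them. Chosen on pairs 1 and 2, the rule took 251 genes, of which 218 (86.9%) were lower by at least 7 doublings in pair 3, against 1.25% of the other genes. In pair 3, 249 of the 251 were at least 8-fold lower and 250 were lower at all, and in pair 1 all 341 were lower. Pair 1 gave smaller falls than the other pairs by the limit of 7 doublings and by the median. The median residual level in the held-out pair was 0.872% in pair 1, 0.301% in pair 2 and 0.336% in pair 3.

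The smaller falls in pair 1 went with lower uninjured and higher regenerating values. Uninjured pool 1 was the lowest uninjured pool for 209 of the 264 members (79.2%), against 40.7% of the other 11392 genes with at least 10 CPM. Its level divided by the mean of uninjured pools 2 and 3 had a median of 0.70 over the members (10th to 90th percentile 0.43 to 1.08) and of 1.03 over the other genes (0.71 to 1.87). Regenerating pool 1 was the highest regenerating pool for 116 of the 197 members with at least 10 regenerating reads (58.9%), against 39.4% of 11390 other genes. Residual levels had medians of 0.499%, 0.308% and 0.363% of the uninjured mean in regenerating pools 1, 2 and 3. Which property of pool 1 goes with this was not tested.

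The 20 highest members differed in their uninjured pool 1 ratio, and are split here at 0.5, a limit set after the values were seen. Of the 20 highest, 9 (ranks 1, 3, 4, 5, 6, 7, 9, 14 and 20) had in uninjured pool 1 between 0.39 and 0.46 of the level in the other uninjured pools. In the regenerating group the same 9 had pool 1 at 1.03 to 1.38 times the mean of pools 2 and 3. The other 11 kept more in uninjured pool 1, between 0.52 and 0.72 of the other pools, and ranged from 0.98 to 3.01 in the regenerating ratio, with a median of 1.74.

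The members of ranks 13 and 18 lay near the top of the regenerating ratios of these 11. The lowest of the 11 was rank 2, at 0.98, and the regenerating ratios of the 9 and the 11 overlapped. Rank 13 had 16.8, 6.53 and 4.73 CPM in regenerating pools 1, 2 and 3 and 1605, 2203 and 2346 CPM in the uninjured pools. Rank 18 had 12.4, 4.75 and 3.51 CPM in the regenerating pools and 938, 1707 and 1663 CPM in the uninjured pools. In both, the regenerating pool 1 value stood well above the other regenerating pools, and no uninjured pool came near it.

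This division into 9 and 11 was made after the values were seen and has no test. Over the 94 members with at least 10 reads in every regenerating library, the ratios of pool 1 in the 2 groups had a Spearman correlation of 0.15 across genes, which share the same libraries and include the 20 highest. By uninjured ratio, the median regenerating ratio was 1.12 from 0.3 to 0.5 (20 genes), 1.27 from 0.5 to 0.6 (18 genes), 1.45 from 0.6 to 0.7 (18 genes), 1.60 from 0.7 to 0.8 (17 genes) and 1.37 from 0.8 (18 genes). Members with an uninjured ratio under 0.3 are in none of these classes. The class from 0.7 to 0.8 includes ranks 29, 56, 60 and 71, which are among the 10 members near 0 in uninjured pool 2. Their uninjured ratio therefore compares pool 1 almost with pool 3 alone. The correlation and the medians are not given without them. The medians were higher from class to class up to 0.8 and lower in the last, and the classes overlapped widely, with ranges of 0.66 to 4.23 in the first and 0.53 to 2.65 in the last.

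**Figure D3:**
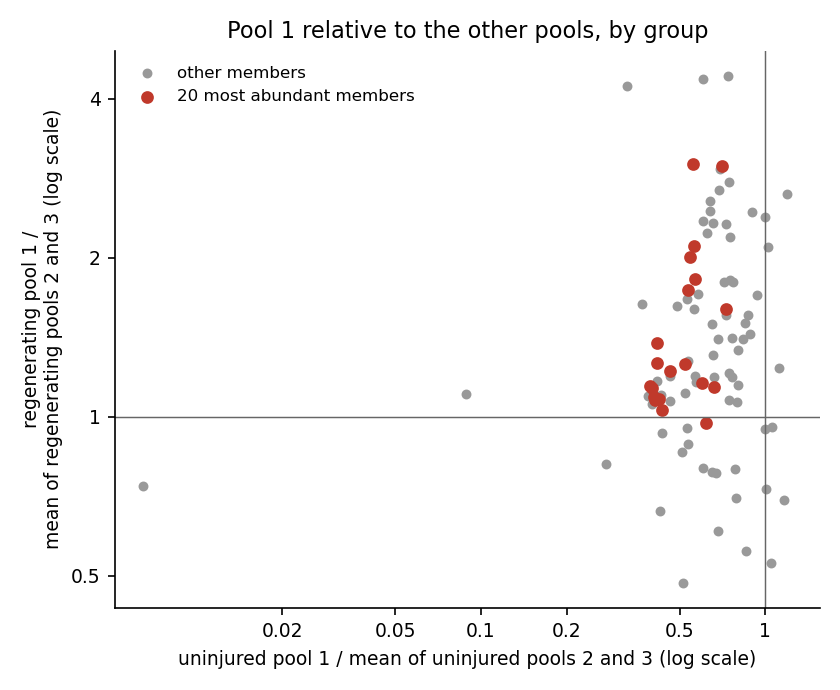
Level in regenerating pool 1 divided by the mean of regenerating pools 2 and 3 (vertical, log scale) against the same ratio in the uninjured group (horizontal, log scale) for the 94 members with at least 10 reads in every regenerating library; lines mark a ratio of 1. The 20 most abundant members, in red, include 9 at uninjured ratios of 0.39 to 0.46 and regenerating ratios of 1.03 to 1.38. Some of the grey points are members near 0 in uninjured pool 2.

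The genes most like the member of rank 1 came from the same end of the list. Likeness was measured as the distance between centred log2(CPM + 0.1) values over the 6 libraries. The 10 nearest members had ranks 9, 3, 5, 14, 6, 27, 7, 12, 2 and 8, at distances of 0.18 to 0.60, against a median of 2.10 over the 263 other members. The nearest, rank 9, had 2414 ± 973 CPM in the uninjured pools (SD, n = 3), a residual level of 0.208%, and pool 1 ratios of 1.03 in the regenerating and 0.43 in the uninjured group. Low members carry more counting noise and so lie farther away by construction.

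A set of 10 members went against the description as abundant retina genes in 1 of the uninjured pools. These genes had at least 10 CPM in uninjured pools 1 and 3 and at most 1/50 of the lower of these values in uninjured pool 2. Among all genes 10 met this pattern, and all 10 were members. Their ranges were 0.0456 to 1.13, 0.0831 to 0.860 and 0.0660 to 0.753 CPM in regenerating pools 1, 2 and 3, and 30.05 to 489, 0.122 to 1.3 and 89.6 to 1286 CPM in uninjured pools 1, 2 and 3. Uninjured pool 2 thus lay with the regenerating pools, and 7 of the 10 overlapped between groups. They made up 7 of the 8 members that did so.

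The highest of the set, rank 29 and 416 bases long, had 1.13, 0.860 and 0.753 CPM in the regenerating pools and 489, 1.3 and 1286 CPM in the uninjured pools. The next, of rank 56, had 0.423, 0.596 and 0.611 CPM in the regenerating pools and 198, 0.514 and 501 CPM in the uninjured pools. The only one with a plain AMEX60DD identifier, rank 155 and 1847 bases long, had 0.330, 0.162 and 0.361 CPM in the regenerating pools and 41.5, 0.30 and 108 CPM in the uninjured pools. In each of these genes uninjured pool 3 was highest, uninjured pool 1 next, and uninjured pool 2 stood with the regenerating pools.

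The 10 genes kept nearly the same proportion between the pools that expressed them. Uninjured pool 3 held 2.51 to 2.98 times the level of uninjured pool 1, with a median of 2.65, and 10 of the other 254 members had a ratio in that range. Over these 254 members the median ratio was 1.42 (10th to 90th percentile 0.89 to 2.34). The range of the set is thus narrow beside that of the other members.

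In the libraries that nearly lacked them, the 10 genes also stood at nearly the same level. Summed over the set, regenerating pools 1, 2 and 3 held 0.147%, 0.144% and 0.135% of the mean of uninjured pools 1 and 3, and uninjured pool 2 held 0.159%. These shares rest on 117, 125 and 125 reads in the regenerating libraries and 161 in uninjured pool 2. Single genes were less even, as in rank 124, with 0.0456, 0.132 and 0.0681 CPM in the regenerating pools and 0.357 CPM in uninjured pool 2. The summed residual level of the 10 genes was therefore as high in an uninjured library as in the regenerating ones, which need not hold for each gene. Whether the remaining reads of these or other members arose in the tissue sampled or passed between libraries was not tested.

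**Figure D4:**
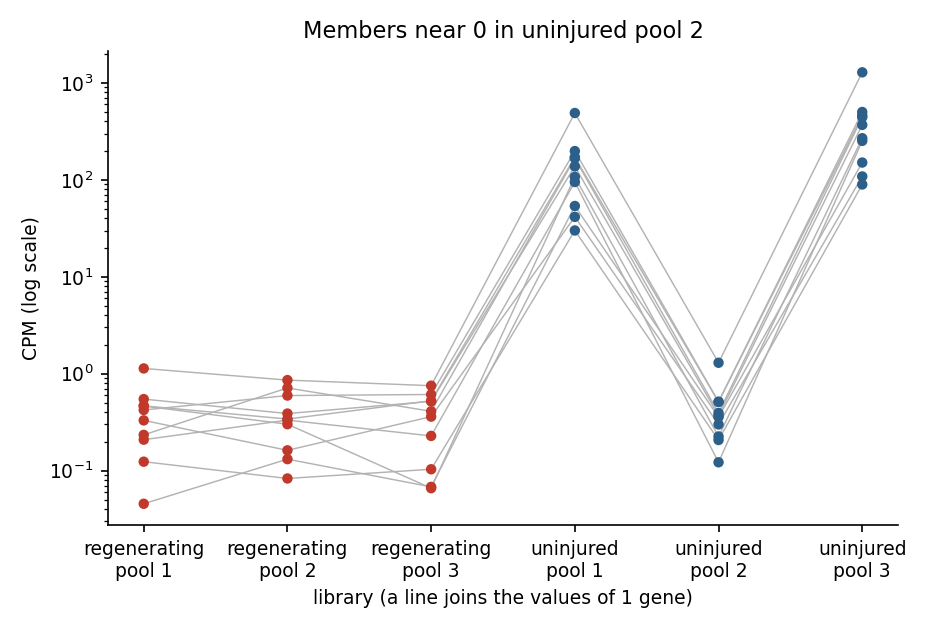
CPM (log scale) in each of the 6 libraries for the 10 members near 0 in uninjured pool 2, a line joining the values of 1 gene, with regenerating pools in red and uninjured pools in blue. In all 10 genes uninjured pool 2 lies at 0.122 to 1.3 CPM, close to the regenerating pools, while uninjured pools 1 and 3 lie between 30.05 and 1286 CPM.

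Most of the set were short genes, with a median length of 287 bases and a range of 204 to 1847. Short genes weigh more per length, so the set took 26.1% of the members' TPM in uninjured pool 1 and 32.5% in uninjured pool 3, and 4 of the 10 highest members by mean uninjured TPM belonged to it. Of the 10, 9 had identifiers that begin with AMEX60DDU, and 5 of these 9 were next in number to another gene of the set. Such neighbours and near-identical copies can share reads in the authors' quantification, so the division of reads among the 10 is uncertain.

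Another 3 members also varied more than 4-fold among the uninjured pools. Rank 107 had 0.402, 0.394 and 0.695 CPM in the regenerating pools and 0.820, 189 and 64.4 CPM in the uninjured pools, so that uninjured pool 1 was nearly empty. Rank 235 had 0.170, 0.0313 and 0.0292 CPM in the regenerating pools and 46.4, 0.0534 and 0.0969 CPM in the uninjured pools, and it owed its place to uninjured pool 1 alone. It was the remaining member whose groups overlapped. Rank 77 had 0.578, 0.406 and 0.643 CPM in the regenerating pools and 19.1, 249 and 182 CPM in the uninjured pools. Over all members the coefficient of variation among uninjured pools had a median of 21.3%, and 63 members had more than a 2-fold range there.

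Members were shorter than other abundant genes at the lower end of the length range. Their median length was 3314 bases (10th to 90th percentile 618 to 11699), against 4047 bases (1590 to 9950) for the other 11392 genes with at least 10 CPM. Lengths under 1000 bases were found in 48 members (18.2%), against 3.47% of the other genes, and lengths of at least 10000 bases in 37 members (14%), against 9.85%. Without the set of 10, the median was 3523 bases and 39 of 254 members (15.4%) were under 1000 bases. Length was almost unrelated to uninjured CPM across members (Spearman 0.05 over 264 genes) and weakly related to the residual level (0.27). Both correlations include the set of 10, whose residual levels had a median of 0.222%, against 0.448% in the other 254 members. The correlations are not given without the set.

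The shortest member, of rank 60 and 204 bases, belongs to the set near 0 in uninjured pool 2. The longest, of rank 133 and 29913 bases, had 0.272, 0.219 and 0.292 CPM in the regenerating pools and 41.4, 74.6 and 74.6 CPM in the uninjured pools. Uninjured pool 1 was again below the other uninjured pools, and the regenerating pools lay close together.

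**Figure D5:**
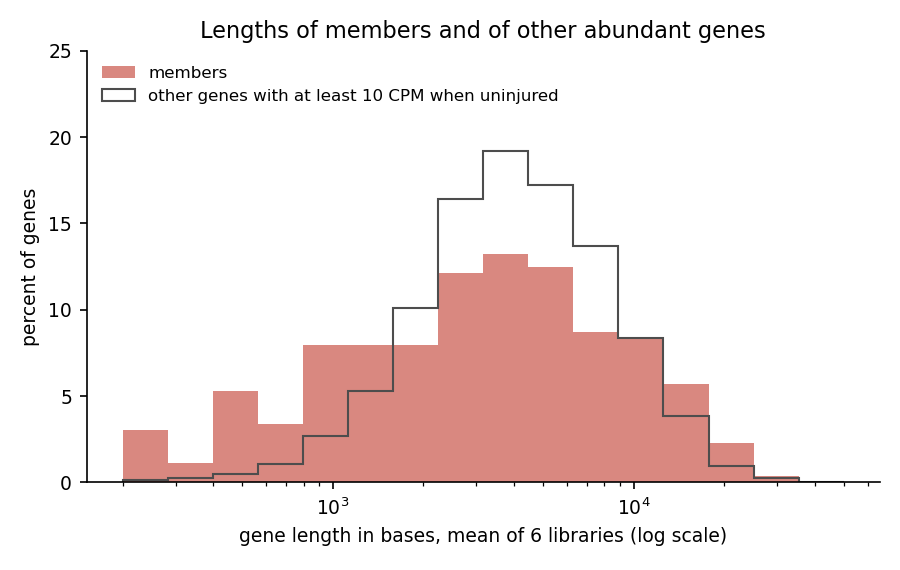
Percentage of genes (vertical) by gene length in bases (horizontal, log scale) for the 264 members, filled red, and for the other 11392 genes with at least 10 CPM when uninjured, outlined in grey. Members are spread more widely, with 18.2% of them and 3.47% of the other genes under 1000 bases.

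Identifier numbers placed some members side by side. Of the members 240 had a plain AMEX60DD number and 24 (9.09%) an AMEX60DDU identifier, a type found in 4.40% of the other abundant genes and in 5.91% of the members outside the set of 10. Among the 240, 47 (19.6%) were next in number to another member, against 0.982% of the 10891 other plain-numbered genes with at least 10 CPM that were next to a member. The 47 formed 20 runs of consecutive numbers, of which 14 held 2 members, 5 held 3 and 1 held 4. The sources used here do not say whether consecutive numbers are neighbours on a chromosome, or whether such genes are copies of each other.

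The run around AMEX60DD002642 shows how unequal members of a run can be. The gene numbered just before it, of rank 17, had 4.73 TPM in the regenerating and 2604 ± 797 TPM in the uninjured mean, and AMEX60DD002642 itself had 5.66 and 2913 ± 871 TPM in the same groups (SD, n = 3). The gene numbered just after it, of rank 243, did not reach 3 reads in any regenerating pool. It had 0.0133 TPM in the regenerating and 11.4 ± 5.09 TPM in the uninjured mean (SD, n = 3). Their uninjured pool 1 ratios were 0.66, 0.62 and 0.47 in the order of their numbers.

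A second run joined ranks 11, 8 and 32, at 10.4, 7.99 and 3.98 TPM in the regenerating mean and 3344 ± 1089, 2882 ± 1027 and 861 ± 368 TPM in the uninjured mean (SD, n = 3). Another began with rank 4 and went on with ranks 131 and 184, which had 471 ± 200 and 506 ± 222 TPM in the uninjured mean (SD, n = 3). The run of 4 held ranks 126, 154, 101 and 134, with 0.343, 0.260, 0.397 and 0.197 TPM in the regenerating mean and 83.5 ± 48.2, 61.1 ± 27.6, 135 ± 81.0 and 141 ± 81.9 TPM in the uninjured mean (SD, n = 3). Uninjured pool 1 was at 0.26, 0.54, 0.28 and 0.34 of the other pools in these 4 genes.

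Within runs the uninjured TPM of the members differed by a median of 2.28-fold, and by over 10-fold in 4 of the 20 runs. The ratio of uninjured pool 1 to the other pools differed by under 1.2-fold in 12 of the 20 runs. It differed by 104-fold at most, in a run that holds rank 107. Over all members, those in runs included, this ratio had a 25th percentile of 0.55 and a 75th of 0.86. Members outside runs were not compared in either measure, and no likeness within runs is read from these values.

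Of the genes numbered next to a member, 424 were no members themselves, and 209 of these entered the edgeR test. Leaving out neighbours that met the rule removes the deepest falls among them, so their shares depend on that choice. Of these 80 (38.3%) were called lower and 40 (19.1%) higher (edgeR quasi-likelihood test, adjusted p under 0.05), against 25.7% lower and 25.7% higher of all 25915 plain-numbered genes tested. Their median log2 change was -0.39, against 0.06 for all plain-numbered genes. At 2, 3, 4 and 5 numbers away, 30.7%, 30.3%, 32.4% and 28.9% were called lower and 27.5%, 28.1%, 26.2% and 27.1% higher. Their median log2 changes were 0.02, 0.09, 0.01 and 0.08, near that of all plain-numbered genes. These shares come without a test, and reads shared between overlapping genes were not examined.

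A column the rule did not use, the gene length weighted by the transcripts that Salmon found in each library, could be tested for a small part of the members. Of the 264, 126 had more than 1 length over the libraries and 37 also had at least 20 reads in every library. Of the 37, 3 (8.11%) were called (limma on log2 length, adjusted p under 0.05), against 6.59% of the 12998 genes tested (4.7% shorter and 1.88% longer in the regenerating pools), and 9 had an unadjusted p under 0.05. The members' share of calls is near that of all genes. With same-numbered pools as a block, limma called 0 of the 37 members and 78 of the 12998 genes, while 8 members had an unadjusted p under 0.05. The unadjusted counts are not given for all genes, so nothing is read from the 9 or the 8.

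The member of rank 39 had lengths of 1862, 1951 and 2092 bases in the regenerating pools and 2445, 2514 and 2513 bases in the uninjured pools. All regenerating values lay below all uninjured ones, but they rest on 52, 39 and 62 reads. The log2 difference was -0.34 with an SE of 0.047 (limma adjusted p = 0.0317, range over alternatives 0.0269 to 0.120). The member of rank 68 was longer in the regenerating pools, at 9580 ± 461 bases against 8199 ± 132 bases in the uninjured pools (SD, n = 3 each), on 21 to 27 reads in each regenerating library (limma adjusted p = 0.0481, range 0.0418 to 0.172). The third, rank 20, differed by 0.02 on the log2 scale, at 2465 ± 4.31 against 2434 ± 0.943 bases (SD, n = 3 each; limma adjusted p = 0.0317, range 0.0253 to 0.144).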

How the data were processed

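RNA of 3 regenerating and 3 uninjured pools was compared. Per the submitters' processing notes, reads were trimmed with Trimmomatic 0.38 and quantified with Salmon 0.13.1; build, annotation and strand setting: not given in the sources used here. Each library's deposited table holds, per the file headers, estimated counts, TPM and lengths in bases by gene; a deposited matrix of the whole series was not used. The estimated counts, as deposited by the authors, gave CPM over the library total and, rounded to whole numbers, an edgeR 4.0.16 quasi-likelihood fit in R 4.3.3 (filterByExpr minimum 10, TMM, no block, Benjamini-Hochberg). Each SE was derived from the fitted log2 change and its F statistic. Lengths were tested with limma 3.58.1. DESeq2 1.42.0 was an alternative. Both tests were also run on simulated data, which held smaller changes in level than the members show. Nothing about the members is read from those runs.

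The members and the summaries were chosen with earlier results of these data known. By rule, ranks 1 to 20 are described, the first 2 by identifier; the set near 0 in uninjured pool 2, the neighbours and the pool patterns were chosen after their values were seen. Same-numbered pools share animals, per the labels; their deviations from group means correlated at -0.05, 0.05 and 0.04 over genes. No 2 libraries of a group agreed within sampling noise (variance at least 14 times that of sampling). Depth, 29.4 to 37.4 M reads, limits low levels to a floor of 3 reads. Salmon divides reads between similar transcripts, so near-identical copies are uncertain. The p-values measure the spread between pools.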

Additional observations from a re-analysis of the deposited data

How the results depend on the processing

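The member count of 264 was 467 at a limit of 6 doublings and 112 at 8, which widen or narrow the rule by construction. It was 310 and 215 at minimums of 5 and 20 CPM, 233 on TMM-scaled libraries, 296 in TPM (217 of them shared), 315 with medians, 254 without the 10 members near 0 in uninjured pool 2 (chosen after seeing the data), and 250 to 321 without 1 library, the highest without regenerating pool 1. The share of regenerating reads was 0.0296% without the member of rank 1. With pair 1 held out, 265 instead of 153 genes passed at 64-fold. Members called lower, 262, were 252 to 263 in all alternatives, 254 with the replicate block. Genes lower and higher, 8004 and 7729 of 37844 tested, were 6964 and 6894 with the block. They were 9492 and 6256 on library totals, and 10615 and 5590 of 55692 tested on log2(TPM + 0.5). The last 2 moved the median log2 change of all genes by -0.16 and -0.26. Length calls were less stable. All genes called, 856, were 78 with the replicate block and 138 to 786 without 1 library. Members called, 3, were 1 at a minimum of 50 reads, 0 with the block, and 0 to 3 without 1 library. Limma called 0 members without uninjured pool 2 or 3, where 7 and 6 members had an unadjusted p under 0.05, counts not given for all genes. The cause was not tested. The median length, 3314 bases, was 3073 as effective length, 3867 at 6 doublings and 2197 at 8. Within 10 numbers of another member stood 82 instead of 47. Uninjured pool 1 stood at 0.65 of the other pools in members from 100 CPM, against 0.70 in all.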

Other observations

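Among all 1638 genes with at least 100 CPM in the uninjured mean, of which 96 are members, the lowest regenerating mean was 0.137% of the uninjured mean. In the other direction, 1479 genes reached 100 CPM in the regenerating pools on average, and among these the lowest uninjured mean was 0.155% of the regenerating mean. The 10 members near 0 in uninjured pool 2 had residual levels of 0.120% to 0.568% of the uninjured mean with a median of 0.222%, and the other 254 members had a median of 0.448%.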
